A study of Homo sapiens with 4 samples.

Results

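Protocadherins are the largest group of the cadherin family of cell surface adhesion proteins. The 70 genes described here are all those whose Entrez gene ID maps to a RefSeq symbol that starts with PCDH and that were listed in at least 1 of the 4 libraries, out of 19390 gene IDs listed. They comprise 15 genes of the alpha cluster (PCDHA), 19 of the beta cluster (PCDHB), 23 of the gamma cluster (PCDHG) and 13 non-clustered genes that lie outside these clusters, on several chromosomes. Of the 70, 66 are protein-coding and 4 are pseudogenes, 3 of them in the beta and 1 in the gamma cluster. RefSeq holds 83 such symbols, and the other 13 were not listed in any library.

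The libraries came from H1, a long-used human embryonic stem cell line, labelled wild type in every sample. The day 0 library was made from undifferentiated H1 cells. The later libraries were collected at days 2, 3 and 4 of a directed differentiation toward blood, in which activin A (40 ng/ml) and BMP4 (50 ng/ml) were given for 2 days and VEGF (40 ng/ml) and bFGF (50 ng/ml) for the next 2 days, in a custom mTeSR1 medium. There was 1 library a day, so no difference below has a replicate check and none carries a p-value. The 5 comparisons (day 2 with 0, 3 with 2, 4 with 3, 4 with 2 and 4 with 0) share libraries and are not independent of each other.

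Each clustered protocadherin is made from 1 large variable exon, which has its own promoter and codes for the outer part, the membrane span and part of the tail. In the alpha and gamma clusters that exon is spliced to shared constant exons, while beta genes have no constant exon. Cells choose among the variable promoters with the help of the architectural factor CTCF, the cohesin ring and DNA methylation, and the proteins bind copies of themselves on neighbouring cells. In neurons this choice gives cells a surface identity. The non-clustered delta protocadherins act in adhesion, sorting and migration of embryonic cells.

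Values are CPM, that is, estimated counts per M counts of the library after TMM scaling, and the bracketed range is an exact 95% Poisson interval. A fold is the ratio of 2 CPM values with an exact 95% interval. Neither interval covers more than counting error. Totals were 5.04, 5.2, 5.2 and 5.49 M estimated counts at days 0, 2, 3 and 4, so that 1 read was worth 0.182 to 0.196 CPM and the floor of 3 counts that stands for a count of 0 in a fold was 0.545 to 0.588 CPM. The exact upper limit for a count of 0 was 0.67 to 0.724 CPM at days 2, 3 and 4. A gene was called 4-fold (or 2-fold) different where log2(CPM + 1) differed by at least 2 (or 1) and at least 1 CPM was reached in either library. In bulk RNA, fewer cells that express a gene and less RNA of it per cell cannot be told apart.

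The listed members numbered 70, 66, 67 and 63 at days 0, 2, 3 and 4, and 60 were listed in all 4 libraries. Over the 4 days 64 members reached 1 CPM, namely all 15 alpha, 15 of 19 beta, 22 of 23 gamma and 12 of 13 non-clustered genes, and 37 reached 5 CPM.

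The first sequences show the coding bases that alpha genes, and likewise gamma genes, have in common. In GENCODE v29 (GRCh38), the last 459 coding bases were identical in all 15 alpha genes and the last 375 in all 22 coding gamma genes. This was 16.1% of the coding length of PCDHA11 and 13.3% of that of PCDHGA10. The end of the variable exon is shown in lower case and the start of the shared exons in capitals, on the plus strand of chromosome 5, for the most abundant members. The alpha capitals are chr5:140978949-140978998 and the gamma capitals chr5:141494807-141494856.
PCDHA4: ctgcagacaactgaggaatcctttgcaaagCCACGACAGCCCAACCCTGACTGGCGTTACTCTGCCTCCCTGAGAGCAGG
PCDHA11: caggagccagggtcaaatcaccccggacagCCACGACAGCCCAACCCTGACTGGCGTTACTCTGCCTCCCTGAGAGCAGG
PCDHGB6: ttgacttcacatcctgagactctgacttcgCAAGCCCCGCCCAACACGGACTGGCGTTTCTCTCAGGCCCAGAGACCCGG
PCDHGA10: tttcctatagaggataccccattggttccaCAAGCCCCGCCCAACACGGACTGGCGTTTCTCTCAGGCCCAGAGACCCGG
PCDHGB7: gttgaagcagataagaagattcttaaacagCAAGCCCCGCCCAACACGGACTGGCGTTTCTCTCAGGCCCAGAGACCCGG
PCDHGC3: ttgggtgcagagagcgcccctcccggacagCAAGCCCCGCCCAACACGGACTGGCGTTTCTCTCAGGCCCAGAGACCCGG
The lower-case bases differ from gene to gene, and a read that lies within the capitals fits every coding gene of its cluster. Single alpha and gamma values are therefore given with their sums. How the deposited counts treat such reads is not given. At days 0, 2, 3 and 4, 69.4 to 70.1% of all genes had an exactly whole estimated count. The alpha and gamma members had 0 to 8.33% and 4.55 to 20% whole counts. Beta genes, which have no constant exon, had 0 to 10.5%, and the non-clustered genes had 76.9 to 84.6%.

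The second set of sequences is what the variable promoters share. RefSeq promoters (GRCh38.p14, 250 bases before to 50 after the gene start) were at hand for 58 of the 70 members. The 10-base word held by most promoters of each cluster was sought on both strands, and the words were chosen after the sequences were seen. GCGCCGCTGT was in 9 of 20 gamma promoters, GGTGGCGCTG in 12 of 14 beta promoters and ATGATGTCGC in 8 of 13 alpha promoters. Among all 35116 promoters of that length the words were in 0.131%, 0.276% and 0.0313%, and none was in a promoter of another protocadherin cluster or of the 11 non-clustered genes. The word is in capitals within 40 bases, from genes of high or changing counts.
PCDHA4, chr5:140806973-140807012: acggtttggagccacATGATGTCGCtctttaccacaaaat
PCDHA6, chr5:140827891-140827930: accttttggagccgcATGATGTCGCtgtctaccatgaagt
PCDHA12, chr5:140875238-140875277: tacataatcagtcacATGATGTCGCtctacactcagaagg
PCDHB2, chr5:141094540-141094579: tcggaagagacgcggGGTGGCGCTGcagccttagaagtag
PCDHB16, chr5:141182306-141182345: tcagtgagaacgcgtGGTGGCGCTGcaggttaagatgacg
PCDHB9, chr5:141187070-141187109: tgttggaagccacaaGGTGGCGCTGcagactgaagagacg
PCDHGB4, chr5:141387614-141387653: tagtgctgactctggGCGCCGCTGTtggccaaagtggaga
PCDHGB6, chr5:141407921-141407960: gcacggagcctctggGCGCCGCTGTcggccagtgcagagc
CGCT, the core of a conserved element known from these promoters, was in 12 of 13 alpha, all 14 beta, all 20 gamma and 10 of 11 non-clustered promoters, and in 70% of all promoters. The 5 alpha promoters without the word are those of PCDHA9, PCDHA10, PCDHA11, PCDHAC1 and PCDHAC2, and PCDHA11 was the most abundant alpha gene at day 0. A match is a description of letters and not a shown binding site.

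The gamma genes with the most counts lay within 1 letter of the gamma word. Counted from 1 at the word's 5′ end, PCDHGA10 had no substitution, PCDHGB7 had T8C and PCDHGC3 had C2T. Of the 20 gamma promoters, 16 held the word with at most 1 substitution in the 250 bases before the start, on the gene's strand, against 1.69% of all promoters. These 250 bases are shown for the 3 genes, with the best match in capitals.
PCDHGA10, chr5:141412737-141412986: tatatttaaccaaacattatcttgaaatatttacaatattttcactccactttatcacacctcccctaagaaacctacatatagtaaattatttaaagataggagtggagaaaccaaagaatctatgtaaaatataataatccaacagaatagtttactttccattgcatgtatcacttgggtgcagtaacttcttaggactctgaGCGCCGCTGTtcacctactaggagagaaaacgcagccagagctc
PCDHGB7, chr5:141417427-141417676: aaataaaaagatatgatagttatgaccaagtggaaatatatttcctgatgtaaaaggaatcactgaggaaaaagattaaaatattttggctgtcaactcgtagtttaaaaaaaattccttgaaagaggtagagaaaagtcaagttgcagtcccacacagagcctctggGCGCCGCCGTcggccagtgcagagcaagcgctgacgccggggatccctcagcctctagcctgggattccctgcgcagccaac
PCDHGC3, chr5:141475716-141475965: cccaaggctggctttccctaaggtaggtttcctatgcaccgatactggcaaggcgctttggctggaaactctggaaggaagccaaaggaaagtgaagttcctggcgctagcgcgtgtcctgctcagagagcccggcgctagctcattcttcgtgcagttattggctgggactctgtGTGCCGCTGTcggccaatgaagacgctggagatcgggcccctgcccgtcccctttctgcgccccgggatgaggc
The match began 44, 82 and 74 bases before the start of PCDHGA10, PCDHGB7 and PCDHGC3. Gamma genes with low counts also carried the exact word, among them PCDHGA1 and PCDHGA9, so its presence did not set the abundant members apart.

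By group, the summed counts moved apart over the course. The gamma cluster summed to 110.0 CPM (101.1 to 119.4) at day 0, 180.1 (168.6 to 192.1) at day 2, 434.8 (417.1 to 453.2) at day 3 and 322.6 (307.8 to 338.0) at day 4. It was 2.41-fold higher at day 3 than at day 2 (2.24 to 2.61) and 2.93-fold higher at day 4 than at day 0 (2.67 to 3.23). The alpha cluster was lower at day 4 than at day 0, with 142.0 CPM at day 0, 90.2 at day 2, 110.5 at day 3 and 74.0 at day 4. The difference was 1.92-fold (1.7 to 2.17). From day 2 to 3 the alpha, beta and gamma sums were all higher, and from day 3 to 4 all were lower. The beta cluster summed to 121.8, 109.3, 162.0 and 137.4 CPM, and its day 4 sum was 1.13-fold that of day 0 (1.01 to 1.26). It was 1.48-fold higher at day 3 than at day 2 (1.33 to 1.65), where alpha was 1.23-fold higher (1.08 to 1.39). Beta was 1.18-fold lower at day 4 than at day 3 (1.07 to 1.3). At day 0 the gamma sum was the lowest of the 3 clusters, and at days 2, 3 and 4 it was the highest. These sums count reads and are not corrected for length. In summed FPKM, which is per length, the day 0 order differed, with alpha at 27.2, gamma at 28.9 and beta at 39, while gamma was again the highest at days 2, 3 and 4 (42.7, 94.4 and 79).

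**Figure D1:**
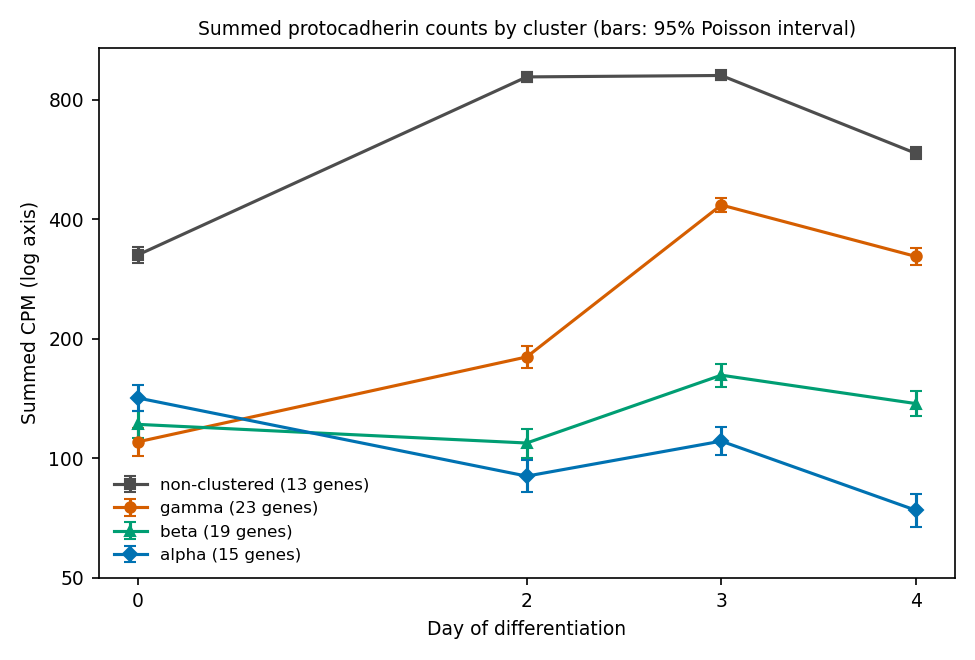
Summed CPM of each group (log axis) against day, 1 library a day, with 95% Poisson intervals as bars. The gamma sum passes from 110.0 CPM at day 0 to 434.8 at day 3, while the alpha sum ends at 74.0 and the beta sum stays between 109.3 and 162.0.

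The 13 non-clustered genes summed to 325.2, 914.1, 921.7 and 586.7 CPM. That was 2.81-fold higher at day 2 than at day 0 (2.66 to 2.97) and 1.57-fold lower at day 4 than at day 3 (1.5 to 1.64). The first step of the sum depended on PCDH10: without it the log2 ratio of day 2 with day 0 was -0.03 in place of 1.49. That level remainder hid opposite changes. PCDH1 had 221.3 CPM at day 0 and 61.0 at day 2. Of the 11 non-clustered genes that reached 1 CPM, 6 were 2-fold higher at day 2, PCDH10 among them, and 1, PCDH1, was 2-fold lower. The shares of all genes were 12.9% and 8.81%. The near-equal sums of days 2 and 3 likewise hid opposite changes, since without PCDH10 the log2 ratio was 0.90. PCDH10 gave 66% of the non-clustered counts at day 2 and 31.3% at day 4, and PCDH1 gave 68% at day 0 and 4.49% at day 4.

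PCDH10 encodes a delta protocadherin known from cell migration and from axon growth. It stood at 7.56 CPM (5.38 to 10.3) at day 0, 603.4 (582.3 to 625.1) at day 2, 341.1 (325.4 to 357.4) at day 3 and 183.4 (172.2 to 195.1) at day 4. Day 2 was the highest library by far, 79.8-fold above day 0 (58.2 to 112.4), and each later day was lower than the one before. Day 4 was still 24.2-fold above day 0 (17.6 to 34.3) and 3.29-fold below day 2 (3.06 to 3.54).

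PCDH7 and PCDH17 reached their highest counts a day later. PCDH7, a delta protocadherin first described in brain and heart, had 5.04 CPM at day 0, 78.9 at day 2, 206.4 at day 3 and 178.7 at day 4. It was 15.6-fold higher at day 2 than at day 0 (10.5 to 24.2) and 2.62-fold higher again at day 3 (2.33 to 2.94). PCDH17, a delta protocadherin studied in axon and synapse formation, had 0.776, 39.6, 129.7 and 81.2 CPM. Its day 2 count was 51.1-fold that of day 0 (19.6 to 189.3), with a wide interval because day 0 held few reads. Between days 3 and 4, PCDH17 was 1.6-fold lower (1.41 to 1.8) and PCDH7 1.16-fold lower (1.06 to 1.26).

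PCDH9 and PCDH19 followed a like course at lower counts. PCDH9 had 0.97, 11.6, 12.9 and 6.36 CPM at days 0, 2, 3 and 4. PCDH19, an X-linked gene whose mutation causes epilepsy, had 0.582, 8.04, 14.9 and 6.91 CPM. PCDH19 was highest at day 3, and days 2 and 3 of PCDH9 differed by less than counting error (1.12-fold, 0.777 to 1.62). At day 4 PCDH9 and PCDH19 were 2.04-fold (1.33 to 3.16) and 2.15-fold (1.44 to 3.27) lower than at day 3. PCDH8, the human counterpart of paraxial protocadherin, which takes part in mesoderm movements in frog and fish embryos, had 0.776, 5.49, 3.29 and 2.54 CPM. Its day 2 count was 7.08-fold that of day 0 (2.48 to 27.8), which passed the 2-fold and not the 4-fold rule on log2(CPM + 1).

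PCDH12 is known from endothelial cells and was the latest to appear. It had 0.194 CPM (0.00491 to 1.08) at day 0, 0.392 at day 2, 2.9 (1.62 to 4.78) at day 3 and 6.91 (4.89 to 9.48) at day 4. Unlike the genes above, its highest value was at day 4, 17.6-fold above day 2 (4.55 to 150.6). The 6 endothelial marker genes summed to 245.9, 395.3, 1020 and 1405 CPM, none of them at 0 on any day. Most of this sum was KDR (209.4, 353.7, 867.6 and 942.4 CPM). At day 0 TEK had 33.4 CPM, and PECAM1, PLVAP and ESAM had 2.13, 0.194 and 0.194. The sixth, CDH5, the cadherin of endothelial junctions, had 0.582, 0.196, 20.1 and 83.4 CPM. The part of endothelial cells in the PCDH12 counts was not tested.

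PCDH1, known from epithelial junctions, ran opposite to PCDH7 and PCDH17 from day 0 to day 2, but not afterwards. It had 221.3 CPM (208.6 to 234.5) at day 0, 61.0 at day 2, 73.6 at day 3 and 26.4 (22.2 to 31.0) at day 4. The day 0 library was the highest, 3.63-fold above day 2 (3.2 to 4.12) and 8.4-fold above day 4 (7.06 to 10.1). Day 3 was 1.21-fold above day 2 (1.04 to 1.41) and day 4 was 2.79-fold below day 3 (2.3 to 3.41). Those directions were the same in PCDH7 and PCDH17. The 7 marker genes of undifferentiated cells summed to 5312, 2254, 2122 and 1764 CPM. LIN28A, the largest of them, had 2425, 1300, 1499 and 1328 CPM. SOX2, which changed most between days 0 and 4, had 285.7 CPM at day 0 and 0.785 at day 2. The part of undifferentiated cells in the PCDH1 counts was not tested.

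PCDH18 had 47.7, 58.8, 88.5 and 67.1 CPM and stayed below the 2-fold rule in all 5 comparisons. It was highest at day 3, 1.5-fold above day 2 (1.3 to 1.75). PCDH11X and PCDH11Y are near-identical copies on the X and Y chromosomes, so their estimated counts may be split wrongly and their sum is firmer. PCDH11X had 25.8, 25.7, 28.8 and 18.4 CPM and PCDH11Y 11.4, 17.9, 14.3 and 4.0. Together they had 37.2, 43.4, 43.3 and 22.4 CPM, so the pair was level through day 3 and 1.94-fold lower at day 4 than at day 3 (1.55 to 2.43). PCDH20 stayed between 2.52 and 4.83 CPM. PCDH15, the tip-link protein of hair cells of the inner ear, had at most 3 counts in every library.

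**Figure D2:**
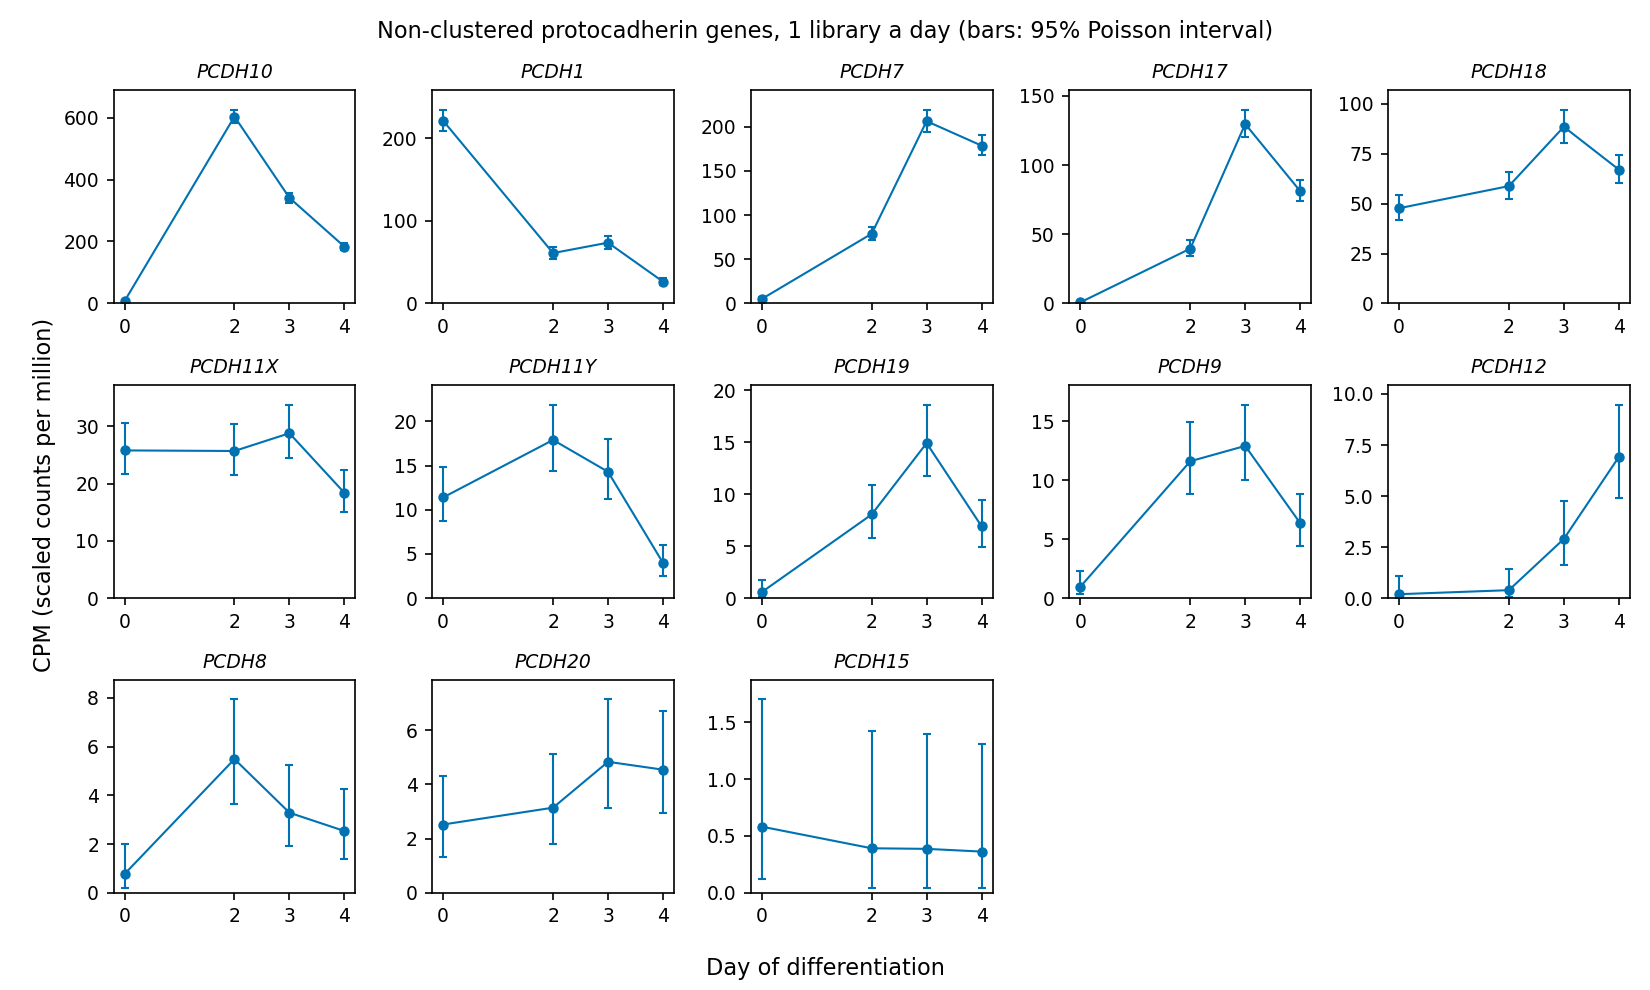
CPM of each non-clustered gene against day, 1 library a day, each panel with its own axis from 0 and 95% Poisson intervals as bars. PCDH10 peaks at 603.4 CPM on day 2, PCDH7 and PCDH17 on day 3 (206.4 and 129.7), and PCDH12 is highest on day 4 (6.91), while PCDH1 starts at 221.3.

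In the gamma cluster a few genes carried the change. The 6 members of highest count on any day (PCDHGA10, PCDHGC3, PCDHGB7, PCDHGB6, PCDHGB4 and PCDHGC4) summed to 73.3 CPM (66.1 to 81.1) at day 0, 155.2 at day 2, 404.1 at day 3 and 305.3 at day 4. The other 17 summed to 36.7 CPM (31.6 to 42.3), 24.9, 30.7 and 17.3 (14.0 to 21.1). The share of the 6 genes in the gamma counts thus passed from 66.7% at day 0 through 86.2 and 92.9% to 94.6% at day 4. Choosing genes by their highest count favours genes that increased, so this split is a description without a test.

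PCDHGA10 had 23.9 CPM at day 0, 58.5 at day 2, 112.3 at day 3 and 71.1 at day 4. It was the most counted gamma gene at days 0, 2 and 3, at 21.7, 32.5 and 25.8% of the cluster. PCDHGB7 had 12.8, 30.8, 95.1 and 66.0 CPM, and day 4 was 5.15-fold above day 0 (3.96 to 6.81). Both were highest at day 3.

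PCDHGC3 is 1 of the C-type genes at the end of the cluster, which in neurons are known to be expressed in most cells instead of by random choice. It had 14.9 CPM (11.8 to 18.7) at day 0, 37.9 at day 2, 91.4 at day 3 and 106.3 (97.9 to 115.3) at day 4. It was the 1 gene among these 6 whose highest library was day 4, 7.12-fold above day 0 (5.61 to 9.15). Its share of the gamma counts was 13.6% at day 0 and 33% at day 4. The 3 C-type gamma genes together were 6.16-fold higher at day 4 than at day 0 (4.97 to 7.7), against 1.89-fold for the 12 A-type (1.61 to 2.23) and 2.58-fold for the 8 B-type genes (2.23 to 2.99). Each of these sums rested much on 1 gene. Without PCDHGA10 the A-type sum was 18.6 CPM at day 0 and 9.27 at day 4, 2.01-fold lower (1.42 to 2.88), so its direction turned. Without PCDHGC3 the C-type sum was 2.68-fold higher (1.61 to 4.63), and without PCDHGB7 the B-type sum was 1.66-fold higher (1.38 to 2).

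PCDHGC4 was brief, with 2.91, 2.35, 24.5 and 9.45 CPM. Its day 3 count was 10.4-fold that of day 2 (5.77 to 20.7) and 2.6-fold that of day 4 (1.87 to 3.66). The deposited transcript length of PCDHGC4 also differed between days 2 and 3. PCDHGB6 had 10.9, 15.3, 52.8 and 36.5 CPM and PCDHGB4 7.76, 10.4, 28.0 and 16.0. In all 3 genes the step from day 2 to day 3 was larger than that from day 0 to day 2. PCDHGA11 had 2.72, 6.87, 4.45 and 0.909 CPM. Its highest library was day 2, but days 2 and 3 differed by less than counting error (1.54-fold, 0.887 to 2.74). It was 7.56-fold lower at day 4 than at day 2 (2.95 to 24.7), and its deposited length also differed between those days.

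Position in the cluster went with count. The first 10 gamma genes in chromosomal order, PCDHGA1 to PCDHGA7, summed to 22.5, 12.6, 13.1 and 9.81 CPM. The last 13, PCDHGB4 to PCDHGC5, summed to 87.5, 167.5, 421.7 and 312.8 CPM and held 79.6% of the gamma counts at day 0 and 97% at day 4. Within the last 13, PCDHGA8, PCDHGB5, PCDHGA9, PCDHGB8P and PCDHGA12 stayed at or below 3.88 CPM. The boundary between the 10 and the 13 was set after the counts were seen.

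**Figure D3:**
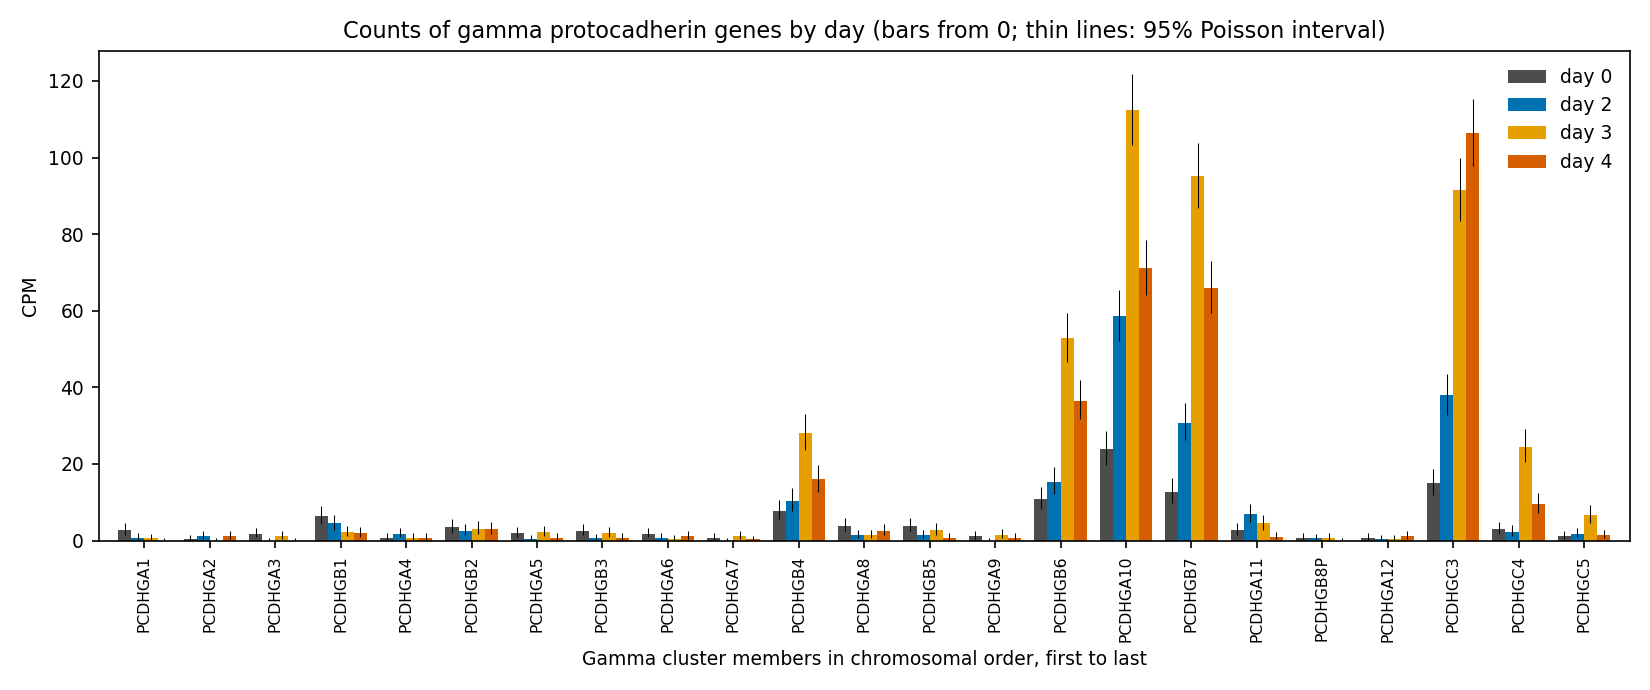
CPM of each gamma gene in chromosomal order (bars from 0, 1 color a day, thin lines 95% Poisson intervals). The tall bars stand at PCDHGB6, PCDHGA10, PCDHGB7 and PCDHGC3, while the first 10 genes together reach at most 22.5 CPM on any day.

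**Figure D4:**
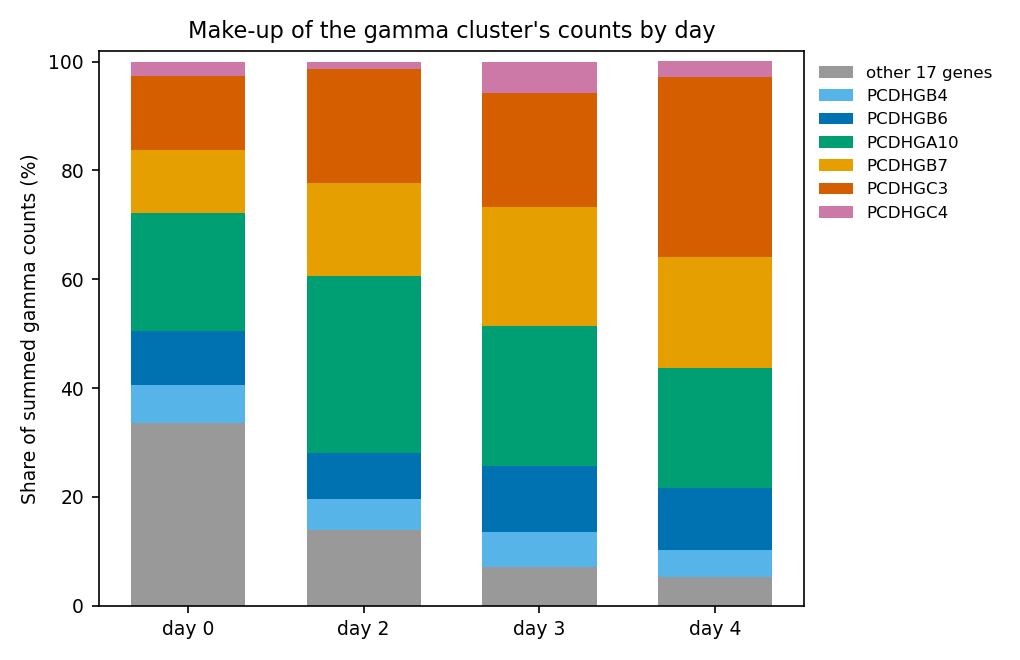
Share of the summed gamma counts (%) held by 6 genes and by the other 17, by day. The grey block of the other 17 genes shrinks from 33.3% at day 0 to 5.37% at day 4, and PCDHGC3 grows from 13.6 to 33%.

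Alpha genes were spread differently, with PCDHA11 at the top throughout. PCDHA11 had 54.5 CPM (48.3 to 61.3) at day 0, 32.2 at day 2, 29 at day 3 and 18.0 (14.6 to 21.9) at day 4. It was 3.03-fold lower at day 4 than at day 0 (2.4 to 3.85), and its share of the alpha counts went from 38.4 to 24.4%. PCDHA12 had 15.3, 12, 10.6 and 4.91 CPM, 3.12-fold lower at day 4 than at day 0 (1.99 to 5.03). In both genes every later library was lower than the one before, but not every step exceeded counting error. Days 2 and 3 differed by 1.11-fold in PCDHA11 (0.884 to 1.39) and 1.13-fold in PCDHA12 (0.769 to 1.65). Days 0 and 2 of PCDHA12 differed by 1.28-fold (0.905 to 1.82).

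Other abundant alpha genes moved less. PCDHA4 had 20.0, 12.6, 17.2 and 14.2 CPM, and PCDHA10 had 13.4, 9.42, 18.2 and 10.7. Neither passed the 2-fold rule in any comparison, although PCDHA4 was 1.59-fold lower at day 2 than at day 0 (1.15 to 2.21) and PCDHA10 was 1.93-fold higher at day 3 than at day 2 (1.35 to 2.79). PCDHAC2, the last gene of the cluster and a C-type, had 9.31, 3.73, 8.12 and 9.45 CPM, a dip at day 2 of 2.5-fold against day 0 (1.44 to 4.5), and its share of the alpha counts was 6.56% at day 0 and 12.8% at day 4. Without PCDHA11 the alpha sum was nearly level between days 2 and 4, with a log2 ratio of -0.06 in place of -0.29.

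At low counts, PCDHA3 had 3.68, 3.33 and 3.29 CPM at days 0, 2 and 3 and none at day 4. With a floor of 3 counts in place of 0, day 4 was 6.76-fold lower than day 0. PCDHA6 had 3.3 CPM at day 0, 0.392 at day 2 and none at days 3 and 4, by the same floor 6.05-fold lower at day 4 than at day 0. Neither fold includes counting error. The 15 alpha genes share exons, so these low counts are uncertain.

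The 5 most counted beta genes kept nearly the same order by count over the 4 days. PCDHB2 had 36.3, 29.4, 42.3 and 33.4 CPM and 24.4 to 29.8% of the beta counts. PCDHB16 had 17.1, 22.6, 24.7 and 22.4 CPM. PCDHB5 had 13.4, 11.4, 19.3 and 12.9, PCDHB9 had 10.7, 14.7, 17.8 and 18.2, and PCDHB15 had 10.3, 9.02, 13.7 and 11.3. None of these 5 passed the 2-fold rule in any comparison. In PCDHB9 day 4 was 1.7-fold above day 0 (1.21 to 2.41), and in the other 4 that interval included 1. Some smaller beta genes moved more. PCDHB8 had 0.776, 1.18, 5.8 and 2.36 CPM, with 4 and 6 counts at days 0 and 2, and day 3 was 4.93-fold above day 2 (2.02 to 14.5). PCDHB14 had 5.43, 2.16, 9.08 and 8.72 CPM. Others, such as PCDHB3 and PCDHB13, did not pass the 2-fold rule in any comparison.

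**Figure D5:**
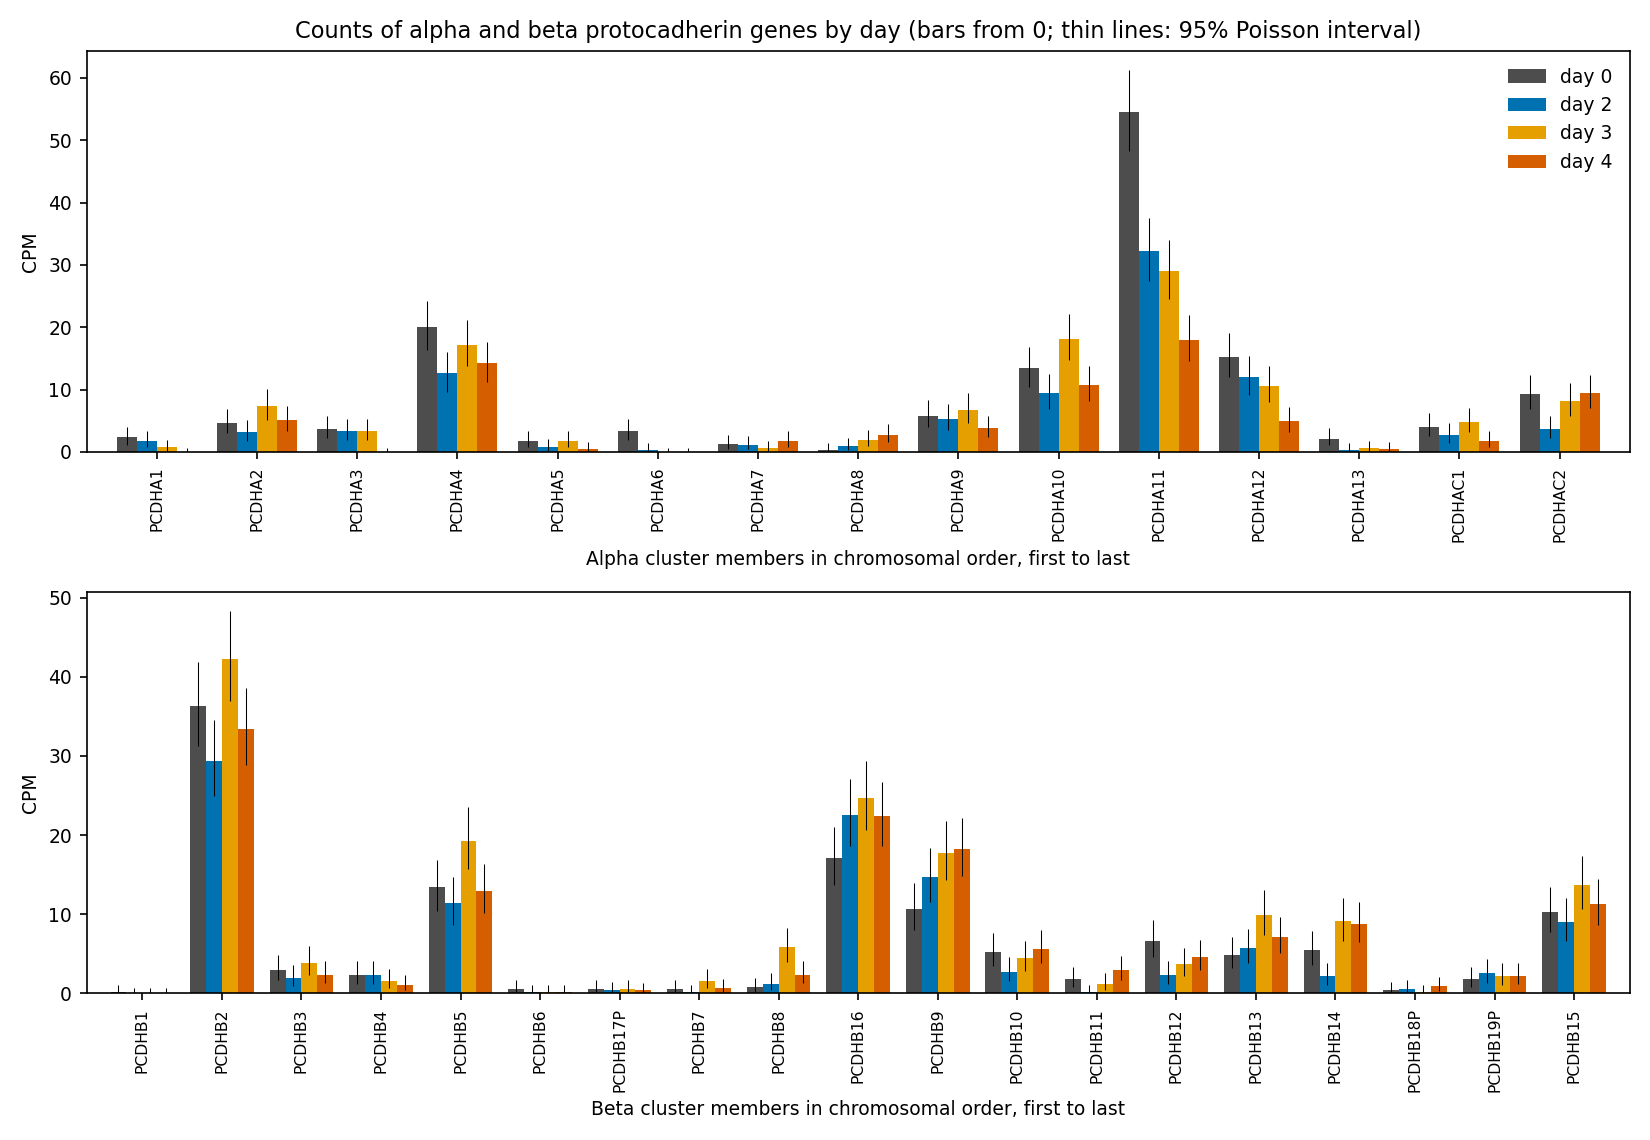
CPM of each alpha gene (top) and beta gene (bottom) in chromosomal order, bars from 0, 1 color a day, thin lines 95% Poisson intervals. PCDHA11 descends from 54.5 to 18.0 CPM, whereas PCDHB2, the tallest beta gene, stays between 29.4 and 42.3.

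Counts of called members are read against the share of all genes called by the same rule. Between days 0 and 2, 59 members reached 1 CPM and 5 of them were 4-fold higher (PCDH7, PCDH9, PCDH10, PCDH17 and PCDH19), where 4.63% of 15379 genes were. All 5 were among the 11 non-clustered genes that reached 1 CPM. No member was 4-fold lower, against 1.93% of all genes. By the 2-fold rule 10 members were higher (12.9% of all genes) and 14 lower (8.81%). The lower ones were 3 alpha, 3 beta and 7 gamma genes and PCDH1. The median difference of the members that reached 1 CPM was -0.22 in log2(CPM + 1), and that of all such genes was -0.00. Over all 70 members it was -0.20.

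Between days 2 and 3, 17 of 59 members were 2-fold higher (5.82% of all genes), and 10 of these 17 were gamma genes, out of 19 that reached 1 CPM. One member was 2-fold lower, PCDHGA2 at low counts (3.51% of all genes). PCDHGC4 alone was 4-fold higher (1.32%), and none was 4-fold lower (0.406%). The median was 0.58 over the 59 members and 1.11 over the 19 gamma genes that reached 1 CPM, against 0.00 over all genes that did so. Without that minimum it was 0.49 over all 70 members and 0.88 over all 23 gamma genes. PCDHGA3, PCDHGA7 and PCDHGA9, among the 10, had 0 CPM at day 2 and reached 1 CPM through day 3 alone. They had 1.16, 1.16 and 1.55 CPM there.

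Between days 3 and 4, the last day under VEGF and bFGF, 11 of 59 members were 2-fold lower (4.25% of all genes) and 2 higher, PCDHGA2 and PCDH12 (2.96%). PCDHA3 alone was 4-fold lower (0.228%), and none was 4-fold higher (0.377%). The median was -0.52 over the members and -0.01 over all genes that reached 1 CPM, and -0.44 over all 70 members. Those 11 were PCDH1, PCDH11Y, PCDH19, PCDHA3, PCDHAC1, PCDHB8, PCDHGA3, PCDHGB5, PCDHGA11, PCDHGC4 and PCDHGC5.

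Across the whole VEGF and bFGF step, day 4 with day 2, 54 members reached 1 CPM. PCDH12 was 4-fold higher (2.32% of all genes), and PCDHA3 and PCDHGA11 were 4-fold lower (1.4%). By the 2-fold rule 10 were higher (8.18%) and 7 lower (7.6%), that is, 18.5% and 13% of the members that reached 1 CPM. The median was 0.18 over the members and 0.02 over all genes that reached 1 CPM, and 0.17 over all 70 members.

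Over the full course, day 4 with day 0, 61 members reached 1 CPM. Of these, 7 were 4-fold higher (6.27% of all genes), namely PCDH7, PCDH10, PCDH12, PCDH17, PCDH19, PCDHGB7 and PCDHGC3, and 3 were 4-fold lower (3.44%), namely PCDH1, PCDHA3 and PCDHA6. By the 2-fold rule 12 were higher (16.1%) and 13 lower (11.9%). The median of these 61 was 0.02, close to the 0.03 of all genes that reached 1 CPM, and over all 70 members it was -0.08. It was -0.83 over the 15 alpha, -0.23 over the 20 gamma and 1.45 over the 12 non-clustered genes that reached 1 CPM. The negative gamma median stands beside a higher gamma sum, with 5 gamma genes 2-fold higher and 5 lower.

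Levels of different genes are compared on the deposited FPKM, which is per length. At day 0 PCDH1 was the most abundant member at 53.86 FPKM, followed by PCDHB2 at 13.53 and PCDHA11 at 9.05. At day 2 PCDH10 led at 115.06 FPKM, with PCDH1 next at 13.97. PCDH10 also led at day 3 (65.84 FPKM, ahead of PCDH7 at 33.81). At day 4 the first 3 were PCDH10 at 34.74, PCDHGC3 at 32.33 and PCDH7 at 27.13 FPKM, the closest ranking at the top of any day. With 1 library a day, the order of such neighbours has no error from replicates.

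The deposited transcript length of a gene also changed between days in many gamma genes. Of 17 gamma genes with more than 1 transcript that were listed in all 4 libraries, 9 had a length that varied by at least 1.5 times, as did 2 of 12 alpha and none of 9 non-clustered genes. That was 28.9% of the 38 members of this kind, against 1.96% of 6734 genes. PCDHGB4 was listed with 2412 bases at days 0 and 2 and with 4578 at days 3 and 4. PCDHGC4 had 2616 bases at day 2 and 4623 on the other days. In PCDHGC3 the length was 4726 bases at day 3 and 3280 at day 4, and its FPKM was 19.14 and 32.33 where its CPM was 91.4 and 106.3. FPKM of these genes therefore moves with the assigned transcript as well as with the count. The PCDHGC4 and PCDHGB4 count differences of day 3 with day 2 span such a length change. So does the PCDHGA11 difference of day 4 with day 2, with 4719 bases at day 2 and 3117 at day 4. Whether these counts moved with the assigned transcript was not tested.

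Genes that work with the protocadherins were taken from 4 lists. Of 17 genes for promoter choice and chromatin loops, all reached 1 CPM, and between days 0 and 4 none was 2-fold higher (16.1% of all genes) and 2 were 2-fold lower (11.9%). DNMT3B, a de novo DNA methyltransferase known to methylate variable promoters of these clusters in mouse embryos, had 2930 CPM at day 0, 399.8 at day 2, 272.1 at day 3 and 182.7 at day 4, 16-fold lower at the end (15 to 17.1). DNMT3A had 205.6, 85.1, 90.4 and 100.7 CPM, and the maintenance enzyme DNMT1 310.9, 240.9, 217.8 and 200.6. The list's median was -0.26 for day 4 with day 0, against 0.03 for all genes.

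Of 15 cytoplasmic partners, 3 were 2-fold higher (16.1% of all genes) and 1 lower (11.9%) at day 4 than at day 0, with a median of 0.14 against 0.03. The tyrosine kinase PTK2B, which protocadherin tails bind, had 3.68, 11, 8.12 and 8.91 CPM. MARCKS, an actin regulator of the same pathway, had 175.7, 391.7, 353.1 and 368.8. DAB1, an adaptor of reelin signalling, had 15.5, 56.3, 25.3 and 4.0 CPM, highest at day 2 like PCDH10.

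Of 8 genes for membrane protein cleavage, none passed the 2-fold rule between days 0 and 4, where 16.1% of all genes were higher and 11.9% lower. Their median was 0.28, against 0.03. The secretase subunit NCSTN had 71.4, 113.4, 156.0 and 136.9 CPM, the protease ADAM17 had 33.4, 73.4, 76.1 and 61.2, and APH1B had 12.8, 16.7, 11.4 and 8.91. The last list of 14 genes held large or atypical cadherins and a pair of immunoglobulin-family adhesion genes, DSCAM and DSCAML1. Of the 12 listed genes that reached 1 CPM at day 0 or 4, 4 were 2-fold higher (CLSTN2, DCHS1, FAT4 and DSCAM; 16.1% of all genes) and 2 lower (FAT3 and DCHS2; 11.9%), with a median of 0.09 against 0.03 for all genes. CLSTN2, a calsyntenin, had 1.75, 10, 18.7 and 14 CPM, the planar polarity ligand DCHS1 had 28.1, 81.4, 107.3 and 109.8, and FAT3 had 106.1, 110.4, 68.0 and 22.5.

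Marker genes were read beside these results. The 6 primitive streak genes summed to 0.97, 501.2, 199.1 and 45.4 CPM, high at day 2 as PCDH10 was. EOMES, the largest of them, had 374.5 CPM at day 2 and 37.4 at day 4. The 10 neural genes, chosen because clustered protocadherins are best known from neurons, summed to 603.7, 1029, 937.7 and 973.8 CPM, with SOX1 and NEUROD1 listed in no library. Most of this sum was NES (347.7, 769.2, 675.8 and 712.1 CPM) and TUBB3 (181.7, 116.3, 155.2 and 183.0). STMN2 had 0, 6.28, 35.2 and 30.9 CPM, while DCX had 11.1, 5.69, 7.54 and 2 and SYT1 60.3, 123.2, 59.5 and 41.3. Of the 8 listed neural genes, 4 were 2-fold higher and 0 lower for day 2 with day 0 (12.9% and 8.81% of all genes). For day 4 with day 2, 1 was higher and 4 were lower (8.18% and 7.6%). For day 4 with day 0, of the 7 that reached 1 CPM, 3 were higher and 1 was lower (16.1% and 11.9%). The 5 blood genes summed to 7.56, 8.04, 3.09 and 14 CPM. What part cells of these kinds had in the protocadherin counts was not tested.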

How the data were processed

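Per the labels' protocols, Trizol was used to extract RNA and a TruSeq kit from Illumina to build the libraries. BWA, Bowtie, RSEM and the hg19 build are listed in the submitters' processing notes, while the series' design text names BWA with an analysis of variance and TopHat with Cufflinks. What each tool did, and its version, is not given in the sources used here. Per the file headers, the authors deposited for each gene an expected (estimated) count, a transcript length and FPKM. Whether strand was used in counting is not given, so antisense reads cannot be told apart.

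From the deposited expected counts, rounded to whole numbers (sums after summing), CPM was computed with TMM scaling (edgeR 4.0.16). Genes missing from a library's file were set to 0. The deposited FPKM served for levels between genes and 1 alternative, and the deposited length for the transcript comparison. With 1 library a day no test was possible. The pseudocount was 1 and the minimum 1 CPM. Calls and intervals were tried on simulated counts that held counting error only, so this says nothing about variation between libraries. Folds against 0 use a floor of 3 counts per library and carry no interval.

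Of 19390 gene IDs, 19273 matched RefSeq symbols. Sequences and coordinates are from GRCh38, not hg19, and are used for sequence only.

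Genes named are all non-clustered members of at least 5 CPM on any day, the 5 highest of each cluster, members called 4-fold in any comparison and the 3 genes of each pathway list with the largest change between days 0 and 4. Others named were chosen after their values were seen. The members and lists were chosen with earlier results of these data known. Alternatives were other pseudocounts (0.1 and 5), scalings (library total, DESeq2 1.42.0 size factors), minimums (none and 5 CPM), FPKM, and cluster sums without their highest member. The gamma A-, B- and C-type sums without their highest member were added after the data were seen.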

Additional observations from a re-analysis of the deposited data

How the results depend on the processing

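All values rest on 1 library a day and 5.04 to 5.49 M estimated counts, so members below about 1 CPM cannot be ordered, and splits within the alpha, beta and gamma clusters rest on the authors' estimates. The median of all genes moved by at most 0.06 (log2) between scalings, and under library totals or median-of-ratios factors all 20 counts of called members stayed within 1.5 times of those reported, and all 20 cluster ratios and all 142 ratios of named genes stayed within their counting intervals. With no minimum the 20 counts also stayed within 1.5 times.

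The counts of called members depended on the pseudocount, the minimum and the unit. Each count below is for the setting named, with the reported count in brackets. For day 2 with day 0, 4-fold higher gave 3 with a pseudocount of 5 and 3 with FPKM (5), 4-fold lower gave 6 with a pseudocount of 0.1 (0), and 2-fold lower gave 1 with a pseudocount of 5, 4 with a minimum of 5 CPM and 1 with FPKM (14). For day 3 with day 2, 4-fold higher gave 10 with 0.1 and 0 with FPKM (1), 4-fold lower gave 1 with 0.1 (0), 2-fold higher gave 7 with 5, 11 with the minimum and 8 with FPKM (17), and 2-fold lower gave 4 with 0.1 and 0 with those 3 settings (1). For day 4 with day 3, 4-fold higher gave 1 with 0.1 (0), 4-fold lower gave 4 with 0.1 and 0 with the other 3 (1), 2-fold higher gave 6 with 0.1, 0 with 5, 1 with the minimum and 0 with FPKM (2), and 2-fold lower gave 17, 3, 6 and 3 (11). For day 4 with day 2, 4-fold higher gave 2 with 0.1, 0 with 5 and 0 with FPKM (1), and 4-fold lower gave 4 with 0.1, 0 with 5, 1 with the minimum and 0 with FPKM (2). There, 2-fold higher gave 4 with 5 and 5 with FPKM (10), and 2-fold lower gave 11 with 0.1, 4 with 5 and 3 with FPKM (7). For day 4 with day 0, 4-fold higher gave 4 with 5 and 4 with FPKM (7), 4-fold lower gave 7 with 0.1, 1 with 5, 1 with the minimum and 1 with FPKM (3), and 2-fold lower gave 3 with 5, 5 with the minimum and 3 with FPKM (13). The 2-fold higher counts of day 2 with day 0 and of day 4 with day 0 stayed within 1.5 times under all 7 settings.

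Without the member of highest mean count, the non-clustered log2 ratio (PCDH10 left out) turned to -0.03 from 1.49 for day 2 with day 0 and to 0.38 from -0.64 for day 4 with day 2. It was 0.90 (0.01 as reported) for day 3 with day 2, -0.53 (-0.65) for day 4 with day 3 and 0.34 (0.85) for day 4 with day 0. Without PCDHA11 the alpha ratios were 0.49 (0.29) for day 3 with day 2, -0.06 (-0.29) for day 4 with day 2 and -0.65 (-0.94) for day 4 with day 0. Without PCDHGA10 the gamma ratios were 0.50 (0.71) for day 2 with day 0, 1.41 (1.27) for day 3 with day 2 and 1.05 (0.84) for day 4 with day 2. Of the gamma types, day 4 with day 0, the A-type turned to -1.01 from 0.92 without PCDHGA10, and the B- and C-types were 0.73 (1.37) without PCDHGB7 and 1.42 (2.62) without PCDHGC3. With summed FPKM the gamma ratios were 1.15 (1.27) for day 3 with day 2 and -0.26 (-0.43) for day 4 with day 3, and the non-clustered ratios were 1.21 (1.49) for day 2 with day 0, -0.08 (0.01) for day 3 with day 2, -0.79 (-0.64) for day 4 with day 2 and 0.42 (0.85) for day 4 with day 0. PCDHGB4 turned with FPKM, to a log2 ratio of -0.30 from 0.62 for day 4 with day 2, where its deposited length changed too. With FPKM, 6 other ratios of named genes left their counting intervals with the same direction. They were PCDHGB4 at 0.51 for day 3 with day 2 and 0.06 for day 4 with day 0, PCDHGB7 at 1.92 for day 4 with day 0, and PCDHGC3 at 0.76, 2.05 and 3.32 for day 4 with days 3, 2 and 0.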
